A study of Vitis vinifera with 6 samples.

Results

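The entry into phenylpropanoid metabolism was followed in terminal buds of grapevine through 8 genes. They were named by identifier, with earlier results of these data known. They are 4 copies of phenylalanine ammonia-lyase (PAL), 2 copies of cinnamate 4-hydroxylase (C4H) and 2 copies of 4-coumarate:CoA ligase (4CL). Other genes that may encode these enzymes were not identified here, so sums and shares cover the 8 listed copies alone. All 8 were found among the 29971 genes of the deposited table. The names of the enzymes come from the definition of the gene set, and the table itself gives identifiers alone. RNA was sequenced from the terminal buds of the diploid ‘Jingyanjing’ (2X) and of the autotetraploid (4X) that colchicine treatment of the same cultivar had produced, with 3 libraries for each ploidy. Each library was pooled from the buds of several vineyard vines, taken shortly before the 4X buds abscised, and both groups received the same vineyard care. The vines of 4X descend from tissue culture plantlets induced with colchicine, so ploidy and a history of colchicine treatment cannot be told apart. The tissue label was not checked against marker genes, because the reference table used here names 0 of the identifiers.

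These enzymes work in sequence. PAL removes ammonia from phenylalanine to give cinnamate, C4H, a cytochrome P450, hydroxylates cinnamate to p-coumarate, and 4CL joins p-coumarate to coenzyme A. The p-coumaroyl-CoA they supply is shared by lignin, flavonoids and, in grapevine, stilbenes such as resveratrol. In plants each enzyme is commonly encoded by several genes, which can differ in tissue and in response to wounding or pathogens. The questions asked of the data were which of the listed copies led in expression in terminal buds, and whether any differed between 4X and 2X.

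Expression was given as FPKM, fragments mapped per kilobase of transcript and scaled to the mapped fragments of the library, so that the levels of different genes can be compared. Since FPKM is relative to the library, a change in the amount of RNA per cell with ploidy is not visible in it. In whole buds, fewer cells of a type and less RNA per cell also cannot be told apart. Total FPKM was 1028190 to 1125410 in a library, and counts are not part of the table, so fragments behind a value were derived for the lowest members alone. Testing was done on log2(FPKM + 1) with limma, over the 18119 genes that averaged 1 FPKM or more. Without 4X replicate 1, 195 genes were called higher and 578 lower at an adjusted p under 0.05, against 11 and 5 with all libraries and at most 2 and 1 without any other library. The results for the entry genes are therefore also given without 4X replicate 1.

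The expression of the 8 listed genes rested on 6 of them, at 65.2 FPKM or more, whereas the remaining listed PAL and C4H copies were below 1 FPKM in every library. The C4H gene VIT_06s0004g08150 was the highest, followed by the 4CL gene VIT_16s0039g02040. The 4CL gene VIT_11s0052g01090 and the PAL gene VIT_06s0004g02620 came next, and the PAL genes VIT_08s0040g01710 and VIT_13s0019g04460 were the lowest of the expressed members. By mean FPKM the 6 genes ranked between 362 and 2508 among the 18119 genes tested, that is, within the top 2.00% to 13.8%.

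**Figure D1:**
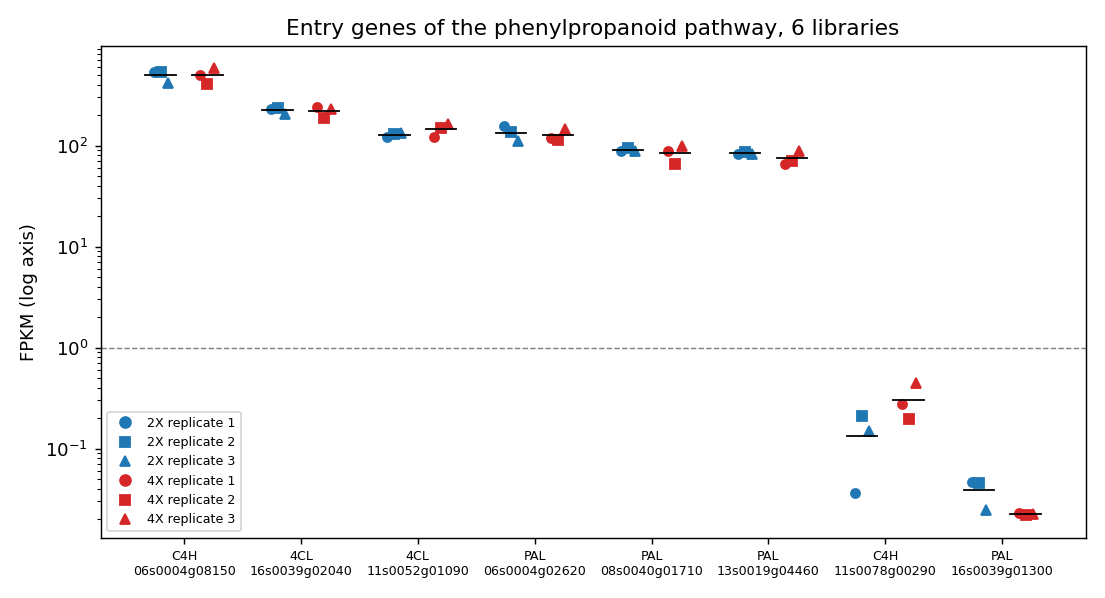
FPKM (log axis) of the 8 entry genes in each library, ordered by mean, with 2X in blue, 4X in red, a marker shape for each replicate number and a black line at the mean of each ploidy. The dashed line marks 1 FPKM, and 6 genes lie between 65.2 and 582 FPKM while VIT_11s0078g00290 and VIT_16s0039g01300 reach at most 0.442 FPKM.

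PAL commits phenylalanine to the pathway, and 3 of the 4 listed copies were expressed, with 1 of them ahead in all 6 libraries. The leading copy was VIT_06s0004g02620, on chromosome 6 by its identifier, with 156, 136 and 110.4 FPKM in 2X replicates 1, 2 and 3. The 4X libraries had 119, 114 and 145 FPKM in the same order. The ranges of the ploidies overlapped, and the highest value and the lowest value of the 6 were both in 2X. VIT_08s0040g01710, on chromosome 8, measured 89.3, 95.5 and 88.5 FPKM in 2X against 89.2, 65.5 and 99.8 FPKM in 4X, in replicate order. Its 2X libraries lay close together and inside the range of 4X, where replicate 2 was low. VIT_13s0019g04460, on chromosome 13, measured 82.4, 85.6 and 82.4 FPKM in 2X against 65.2, 71.0 and 88.2 FPKM in 4X. Here 4X replicates 1 and 2 were below every 2X library and 4X replicate 3 was above them all.

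The fourth PAL copy, VIT_16s0039g01300 on chromosome 16, was close to 0 in all libraries. It was listed at 0.0465, 0.0456 and 0.0243 FPKM in 2X and at 0.0231, 0.0217 and 0.0223 FPKM in 4X. After correction for the relative depth that low values imply, these are whole multiples of a single step within 0.0405 of a step. Taking 1 step as 1 fragment, they correspond to 2, 2 and 1 fragments in 2X and 1 fragment in each 4X library. The 2X and 4X libraries did not overlap, but 2X replicate 3 and the 4X libraries stand for the same number of fragments and differ by depth alone. With 5 fragments in 2X and 3 in 4X, a difference between the ploidies was not detectable at this depth (exact permutation test of the FPKM, two-sided p = 0.1, the smallest that 3 against 3 libraries can give). How the authors treated reads that fit several places is not given in the sources used here, and values of closely related copies are uncertain to that extent.

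The member on chromosome 16 lies in a run of neighbouring identifiers, from VIT_16s0039g01100 to VIT_16s0039g01370, with 26 rows in the table. The table does not say what the neighbours encode. Of the 26 rows, 11 were listed at 0 in every library and 13 were detected below 1 FPKM, with a highest single value of 0.374 FPKM. Only VIT_16s0039g01310 and VIT_16s0039g01330 reached a mean of 1 FPKM. VIT_16s0039g01310 measured 2.03, 2.42 and 0.675 FPKM in 2X against 1.94, 2.22 and 2.36 FPKM in 4X. VIT_16s0039g01330 measured 1.30, 3.75 and 0.957 FPKM in 2X against 3.66, 3.40 and 3.59 FPKM in 4X. Both were low in 2X replicate 3 and overlapped between the ploidies, with log2 fold changes of 0.29 (SE 0.28, adjusted p = 0.701 from limma) and 0.71 (SE 0.33, adjusted p = 0.388 from limma). Almost the whole of the run was thus at or near the limit of detection in terminal buds, the member included.

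C4H showed the most uneven use of the listed copies. VIT_06s0004g08150, on chromosome 6, had 535, 529.7 and 421 FPKM in 2X replicates 1, 2 and 3 and 499.7, 411 and 582 FPKM in 4X replicates 1, 2 and 3. 2X replicate 3 and 4X replicate 2 were the low libraries, and the ranges of the ploidies overlapped widely. The other copy, VIT_11s0078g00290 on chromosome 11, measured 0.0359, 0.211 and 0.149 FPKM in 2X against 0.278, 0.197 and 0.442 FPKM in 4X. Taking 1 step as 1 fragment, the values lie nearest to 1, 6 and 4 fragments in 2X and to 8, 6 and 13 fragments in 4X. The largest deviation, 0.156 of a step, was slightly above the limit set for a match, so these numbers are approximate. Its mean was 2.32 times higher in 4X, and the libraries overlapped, since 4X replicate 2 was below 2X replicate 2. This was not distinguishable from the spread between libraries (exact permutation test, two-sided p = 0.2), and the gene was below the limit of 1 FPKM for testing. With no filter on low values limma gave it an adjusted p of 0.541.

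4CL, which activates p-coumarate for the branches that follow, was expressed from both listed copies. VIT_16s0039g02040, on chromosome 16, had 230.0, 234 and 205 FPKM in 2X replicates 1, 2 and 3. The 4X libraries had 239.7, 189 and 229.8 FPKM in the same order. It was the steadiest of the expressed members, with a highest value 1.27 times the lowest, and 4X held both of these. VIT_11s0052g01090, on chromosome 11, measured 121, 131 and 132 FPKM in 2X against 121, 150.5 and 164 FPKM in 4X. In this gene 4X replicates 2 and 3 were above all 2X libraries, and 4X replicate 1 was slightly below them.

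The order of the levels held in most libraries. VIT_06s0004g08150 exceeded VIT_16s0039g02040 in all 6 libraries, by 2.05 to 2.53 times, and their ranges did not overlap. VIT_16s0039g02040 was likewise above VIT_11s0052g01090 in all 6 libraries, by 1.26 to 1.98 times. The next neighbours, VIT_11s0052g01090 and the leading PAL copy VIT_06s0004g02620, were in this order in 4 of 6 libraries, and their ranges overlapped. VIT_06s0004g02620 was above VIT_08s0040g01710 in all 6 libraries, by 1.25 to 1.75 times. VIT_08s0040g01710 and VIT_13s0019g04460 differed by less than their spread, with the former higher in 5 of 6 libraries. A wide gap separated VIT_13s0019g04460 from the low C4H copy, with a ratio of at least 199.8 in every library. The low members VIT_11s0078g00290 and VIT_16s0039g01300 were in this order in 5 of 6 libraries.

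The share of each copy in the FPKM summed over the listed copies of its enzyme shows how far a copy led among them. VIT_06s0004g02620 held 43.2 ± 4.19% of the PAL sum in 2X and 44.2 ± 1.18% in 4X (SD, n = 3). The shares of VIT_08s0040g01710 were 29.6 ± 2.15% and 29.6 ± 3.29%, and those of VIT_13s0019g04460 were 27.1 ± 2.08% and 26.2 ± 2.23%, in 2X and 4X. The PAL sum was therefore spread over these 3 copies in a proportion that moved by less than the SD between the ploidies. VIT_16s0039g01300 held at most 0.0144% of the sum in any library. For C4H, VIT_06s0004g08150 held between 99.92% and 99.99%. For 4CL, VIT_16s0039g02040 held 65.4, 64.1 and 60.9% in 2X replicates 1, 2 and 3 and 66.4, 55.7 and 58.3% in 4X replicates 1, 2 and 3. It led in all 6 libraries, by the least in 4X replicates 2 and 3 and by the most in 4X replicate 1, so the ploidies overlapped.

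**Figure D2:**
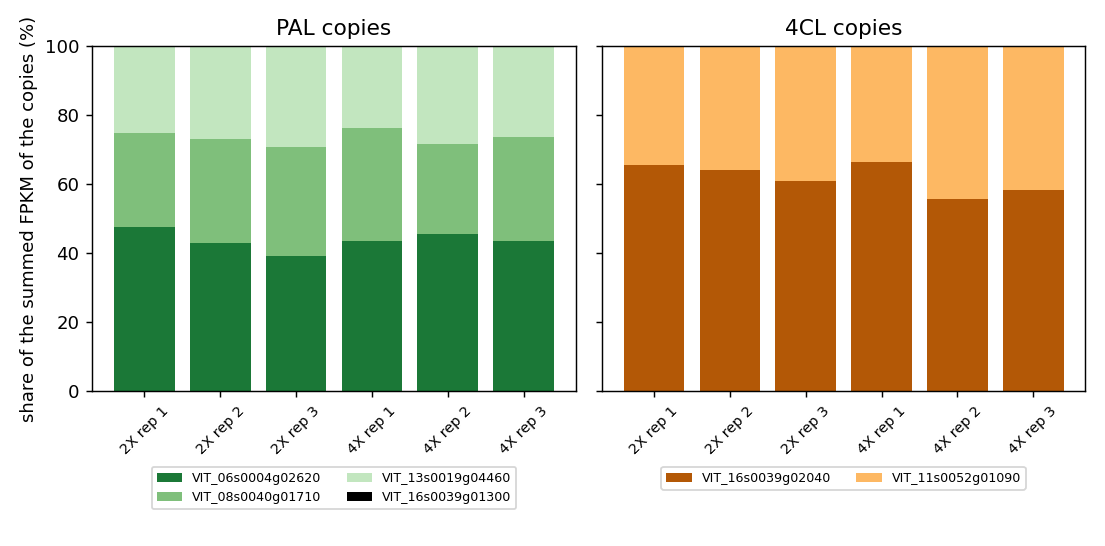
Share (%) of each copy in the FPKM summed over the listed PAL copies (left, greens) and the listed 4CL copies (right, oranges), one stacked bar for each library. The leading PAL copy takes 39.2% to 47.6% and the leading 4CL copy 55.7% to 66.4%, and the share of VIT_16s0039g01300 is too small to be seen.

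Summed over its listed copies, PAL measured 309 ± 24.3 FPKM in 2X against 286 ± 42.8 FPKM in 4X (SD, n = 3). C4H had 495 ± 64.3 and 498 ± 85.8 FPKM, and 4CL had 351 ± 13.9 and 365 ± 27.5 FPKM, in 2X and 4X. The means thus differed between the ploidies by less than the SD of 4X for every enzyme. In each library the C4H sum was above the 4CL sum, and the 4CL sum was above the PAL sum. The C4H sum was 1.497 to 1.83 times the PAL sum, and the 4CL sum was 1.07 to 1.35 times the PAL sum. The ratio of 4CL to PAL was 1.07, 1.15 and 1.20 in 2X replicates 1, 2 and 3 and 1.32, 1.35 and 1.18 in 4X replicates 1, 2 and 3. It was above all 2X libraries in 4X replicates 1 and 2, while 4X replicate 3 lay within the range of 2X.

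None of the 6 expressed entry genes was called different between 4X and 2X. The limma test with Benjamini-Hochberg adjustment called 0.0883% of the genes tested in either direction, and 0 of the 6. At an unadjusted p under 0.05 there were 14.3% of the genes tested and 0 of the 6. The 2X and 4X libraries were fully apart in 20.1% of the genes tested and in 0 of the 6. VIT_16s0039g01300 and VIT_11s0078g00290 did not pass the filter on low values and are not in these counts. With no filter all 8 were tested, and 0 were called or had an unadjusted p under 0.05. Of the 29971 genes then tested 20 were called, and 1832 were higher and 1393 lower at an unadjusted p under 0.05. Over the 6 genes the median of the log2 fold changes was -0.056, beside 0.011 over all genes tested. The median of their size regardless of sign was 0.10, beside 0.14.

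Among the PAL genes the log2 fold change of 4X over 2X was -0.17 for VIT_13s0019g04460 (SE 0.12, adjusted p = 0.590 from limma). It was -0.12 for VIT_08s0040g01710 (SE 0.16, adjusted p = 0.786 from limma) and -0.083 for VIT_06s0004g02620 (SE 0.15, adjusted p = 0.862 from limma). All 3 PAL estimates were below 0, and none passed the test. For the C4H gene VIT_06s0004g08150 it was 0.00088 (SE 0.16, adjusted p = 0.999 from limma). For 4CL it was 0.17 in VIT_11s0052g01090 (SE 0.13, adjusted p = 0.600 from limma) and -0.029 in VIT_16s0039g02040 (SE 0.12, adjusted p = 0.951 from limma). Exact permutation tests of the 6 genes gave two-sided p between 0.4 and 1.

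A p above the threshold does not show that the ploidies are alike, and the 95% intervals give the range of change that these libraries allow. On the scale of the fold of 4X over 2X, the interval was 0.730 to 1.09 for VIT_13s0019g04460, 0.710 to 1.19 for VIT_08s0040g01710 and 0.732 to 1.22 for VIT_06s0004g02620. It was 0.762 to 1.31 for the C4H gene VIT_06s0004g08150. For the 4CL genes it was 0.915 to 1.38 in VIT_11s0052g01090 and 0.807 to 1.19 in VIT_16s0039g02040. Taken gene by gene, a decrease below 0.710 times or an increase above 1.38 times lay outside all of these intervals. The intervals are those of the fit to all libraries. The estimates moved when a library was left out, and no interval is given for those settings.

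**Figure D3:**
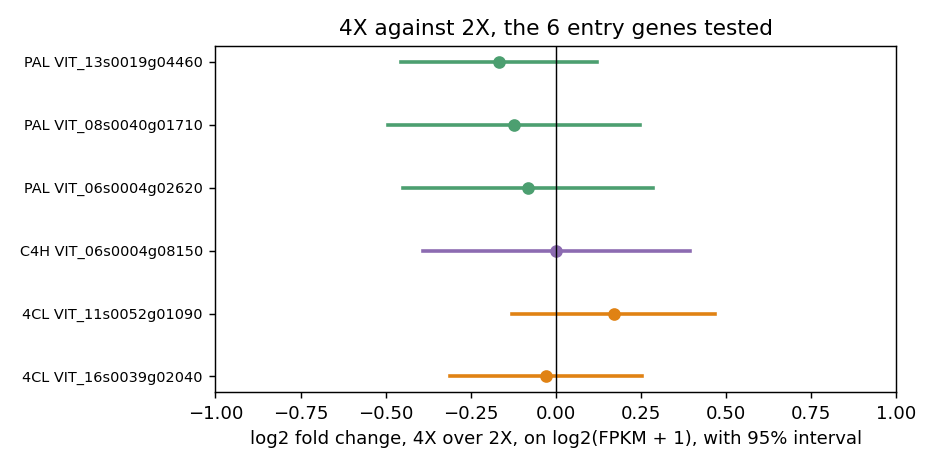
Log2 fold change of 4X over 2X (x axis) with its 95% interval from limma for the 6 entry genes tested, coloured by enzyme (PAL green, C4H purple, 4CL orange). Every interval includes 0, and the estimates lie between -0.17 and 0.17.

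Without 4X replicate 1, none of the 6 genes was called either. Among the PAL genes the log2 fold change was then -0.075 for VIT_13s0019g04460, -0.17 for VIT_08s0040g01710 and -0.044 for VIT_06s0004g02620. It was -0.0093 for the C4H gene VIT_06s0004g08150 and -0.095 for the 4CL gene VIT_16s0039g02040. These 5 estimates were below 0, and that of VIT_13s0019g04460 compares with -0.17 with all libraries. VIT_11s0052g01090 then had a log2 fold change of 0.29 (SE 0.093), with an unadjusted p of 0.0182 from limma. The adjusted p was 0.140, the lowest of any entry gene over the 13 alternative settings, in which that of this gene reached 0.955. In this setting 1855 genes higher and 1969 lower of 18121 tested had an unadjusted p under 0.05. Without 4X replicate 3, VIT_13s0019g04460 had a log2 fold change of -0.29 (SE 0.097), with an unadjusted p of 0.0246 from limma. Its adjusted p was 0.529, and it ranged up to 0.822 over the settings. Here 833 genes higher and 700 lower of 18090 tested had an unadjusted p under 0.05. The estimates of VIT_11s0052g01090 and VIT_13s0019g04460 kept their sign in all 13 settings but moved by more than 1.5 times with the library left out. They ranged from -0.29 to -0.075 for VIT_13s0019g04460, with the smallest size without 4X replicate 1 (unadjusted p = 0.527 from limma). For VIT_11s0052g01090 they ranged from 0.076 without 4X replicate 3 to 0.29 without 4X replicate 1.

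The libraries of 4X differed among themselves for these genes. 4X replicate 3 was above the gene's own mean in 6 of 6 expressed members and was the highest library in 4 of them. 4X replicate 2 was above the mean in 1 of 6 members, VIT_11s0052g01090, and was the lowest library in 3. The median deviation of the 6 genes from their own mean on log2(FPKM + 1) was 0.18 in 4X replicate 3, -0.20 in 4X replicate 2 and -0.050 in 4X replicate 1. In 2X replicates 1, 2 and 3 it was 0.063, 0.095 and -0.072. 4X replicate 2 and 4X replicate 3 thus lay on opposite sides of the 2X libraries by this median. Total FPKM was 1028190 in 4X replicate 2 and 1068820 in 4X replicate 3. Whether these deviations extend to other genes was not tested.

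**Figure D4:**
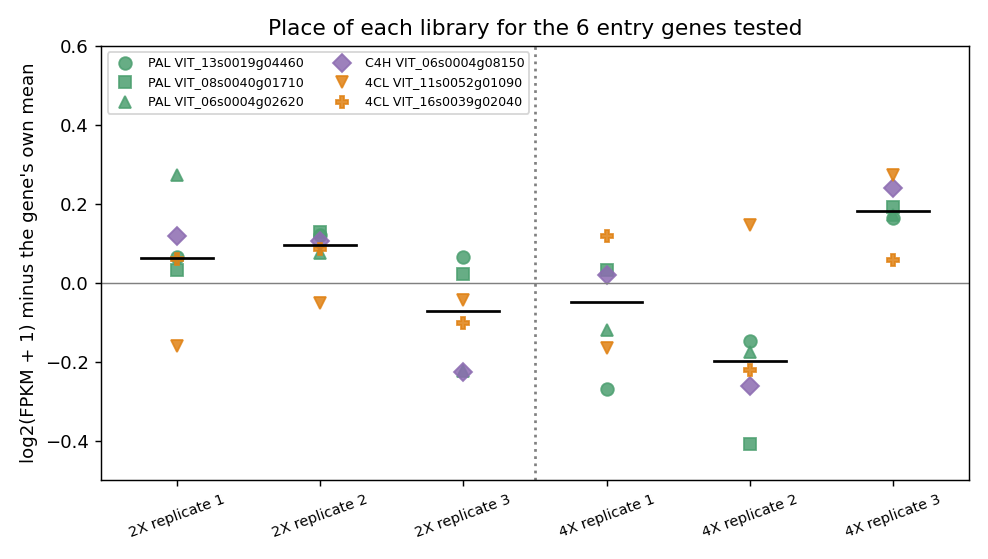
Deviation of each expressed entry gene from its own mean over the 6 libraries on log2(FPKM + 1), by library, with a marker for each gene, colours for the enzymes and a black line at the median of the 6 genes. All 6 genes lie above 0 in 4X replicate 3, and VIT_11s0052g01090 is the only one above 0 in 4X replicate 2.

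The spread of the expressed members over the 6 libraries lay above the median for genes of their level, except in VIT_16s0039g02040. The SD of log2(FPKM + 1) ranged from 0.13 in VIT_16s0039g02040 to 0.21 in VIT_08s0040g01710, beside a median of 0.16 over the 3977 genes that averaged 50 FPKM or more. Of those genes, 35.1% had a smaller SD than VIT_16s0039g02040. For the other expressed members this share ranged from 52.8% (VIT_13s0019g04460) to 67.6% (VIT_08s0040g01710).

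Likeness of pattern was measured as the root mean square difference of log2(FPKM + 1) over the 6 libraries, after subtracting the mean of each gene, among genes with an SD of at least 0.8 times that of the member. For the leading PAL copy VIT_06s0004g02620 and the C4H gene VIT_06s0004g08150 the difference was 0.097. The C4H gene took place 28 among 10886 genes by likeness to this PAL copy, and the PAL copy took place 22 among 10924 genes by likeness to the C4H gene. Both genes were low in 2X replicate 3 and 4X replicate 2 and high in 2X replicate 1 and 4X replicate 3. VIT_08s0040g01710 took place 83 by likeness to the C4H gene, and VIT_13s0019g04460 took place 517. The leading 4CL gene VIT_16s0039g02040 differed from the C4H gene by 0.10, less than the 0.12 of VIT_08s0040g01710, but had no place because its SD was below the limit of 0.8. The other 4CL gene, VIT_11s0052g01090, was at place 2129 with a difference of 0.24. These are descriptions over the same 6 libraries, which differ in depth and in ploidy, and many other genes were nearer than the members to each other.

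The genes nearest to the leading copies were VIT_03s0038g02680 and VIT_09s0054g01250 for the PAL gene VIT_06s0004g02620, at 0.058 and 0.060. For the C4H gene VIT_06s0004g08150 they were VIT_03s0063g00310 and VIT_09s0002g04150, at 0.049 and 0.055. For the 4CL gene VIT_16s0039g02040 they were VIT_03s0038g00860 and VIT_16s0013g00620, at 0.032 and 0.034 among 15279 genes. The closest match to C4H, VIT_03s0063g00310, measured 47.6, 47.4 and 38.7 FPKM in 2X against 44.1, 40.0 and 53.0 FPKM in 4X. That was about an order of magnitude below C4H, with the same low libraries. VIT_09s0054g01250, named above for the PAL copy, measured only 0.750 to 1.40 FPKM. At that level log2(FPKM + 1) understates changes, so its likeness was read on that scale only.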

How the data were processed

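The reads were trimmed by the authors with the FASTX-Toolkit and aligned with TopHat 2.0.14 to the grapevine genome at Ensembl Plants, and Cufflinks 2.2.1 served for their differential expression. The deposited values are FPKM per gene and library. The genome build, the annotation version, strand use, the treatment of ambiguous reads and any scaling between libraries are not given in the sources used here, and 0 columns were left out. Groups were taken from the sample labels.

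All genes averaging 1 FPKM or more over the 6 libraries were fitted on log2(FPKM + 1), a pseudocount of 1, by limma 3.58.1 (R 4.3.3) with a variance trend. Calls were made below 0.05 after Benjamini-Hochberg adjustment of p over all genes tested. Fold changes on this scale understate those of low genes. Single genes were also compared with exact two-sided permutation tests (scipy 1.17.1), which cannot go below p = 0.1 with 3 against 3 libraries. The replicates are pools of vines, so p weighs a difference between the ploidies against the spread between these pools. In limma the variance of each gene is also drawn towards a trend over all genes tested. Relative depth was read from the commonest ratio between libraries of values under 0.3 FPKM, from which the fragments behind the lowest members were derived. Such fragment numbers carry counting error that no interval here covers. The fit was checked on simulated data with planted changes larger than any estimate for the members. The check does not bear on changes of the size estimated here.

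The members and lists were chosen with earlier results of these data known. The genes named are the 8 members, the rows of the chromosome 16 run that averaged 1 FPKM or more, and the 2 nearest genes by pattern for the leading copy of each enzyme. VIT_16s0039g01100 and VIT_16s0039g01370 are named as the ends of that run. A list of later pathway genes and the marker check were planned only where the reference table names the identifiers. It names 0, so neither was run, and no sequence is shown. The alternatives were a pseudocount of 0.1, no filter, a filter of 1 FPKM in either ploidy, median scaling, quantile normalization, no variance trend, the replicate number as a block, and leaving out each library in turn.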

Additional observations from a re-analysis of the deposited data

How the results depend on the processing

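In none of the 13 alternative settings was an entry gene called. Without 4X replicate 1, 1 of the 6 had an unadjusted p under 0.05, beside 1855 genes higher and 1969 lower of 18121 tested. Without 4X replicate 3, 1 of the 6 did, beside 833 higher and 700 lower of 18090. The other settings had 0. The estimate for the C4H gene VIT_06s0004g08150, which is next to 0, changed sign to -0.013 with median scaling and to -0.021 with quantile normalization. With each library left out in turn it ranged from -0.12 to 0.13, that of VIT_06s0004g02620 from -0.22 to 0.032, that of VIT_08s0040g01710 from -0.25 to 0.051 and that of VIT_16s0039g02040 from -0.095 to 0.075. Over all genes tested, leaving out each library gave between 0 and 195 genes called higher and between 0 and 578 lower, with the highest counts without 4X replicate 1. The replicate numbers were not treated as pairs, since same-numbered libraries of the ploidies deviated with correlations across genes of -0.0076, -0.051 and 0.087. With the replicate block 0 genes were called higher and 0 lower by limma, with 1259 and 1031 at an unadjusted p under 0.05. Leaving out a library moves a mean share by less than its SD by construction, so these alternatives say nothing about the stability of the shares. The share of PAL over all copies annotated in a reference was not run, because the reference table names 0 identifiers. Depth limits what can be said of VIT_16s0039g01300 and VIT_11s0078g00290. By the derived numbers they rest on 1 or 2 fragments and on about 1 to 13 fragments in a library, respectively.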

Other observations

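In 5 of the 6 expressed entry genes the SD of log2(FPKM + 1) was larger among the 4X libraries than among the 2X libraries, and this was so in 57.4% of all genes tested. The SD was 0.032 in 2X and 0.22 in 4X for VIT_13s0019g04460, and 0.059 and 0.31 for VIT_08s0040g01710. For VIT_11s0052g01090 it was 0.065 and 0.23. The exception was VIT_06s0004g02620, with 0.25 in 2X and 0.19 in 4X. The difference in spread was not tested.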
